A study of Mus musculus with 6 samples.

Results

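Adipocytes of the bone marrow were described here through 10 genes, chosen by name, of 13857 genes with a probe on the array: Cfd, Adipoq, Lpl, Fabp4, Pparg, Plin1, Cidec, Retn, Lipe and Car3. Of these, 9 had a probe, and Plin1, which encodes a coat protein of the lipid droplet, had none. Pooled marrow RNA was read on 6 CodeLink arrays, 2 in each of 3 groups of female C57BL/6J mice aged 6 to 10 weeks (by the methods, the irradiated recipients were of the congenic C57BL/6J-CD45.1 strain). The BM group held unirradiated, unmanipulated marrow, pooled from 2 mice per array. Mice of the HSC group were given 9.5 Gy of total body irradiation and then 1000000 unsorted BM cells, and 2 of them made up each array. Mice of the MSC group were given 9.5 Gy and then 1000000 bulk mMSCs, which are mesenchymal stromal cells grown from marrow, and 3 of them made up each array. All recipients of cells were therefore irradiated, no group was irradiated without cells, and the mMSCs were a late-passage, retrovirally labelled culture. The methods place the sampling at day 21 after transplantation, whereas the series' own design text puts it at 7 months, which the arrays cannot settle.

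Marrow adipocytes arise from the stromal cells of the marrow, store fat in a large lipid droplet and are known to fill the marrow cavity after irradiation, when blood-forming cells are lost. Their identity is set by the nuclear receptor PPARγ, encoded by Pparg, together with C/EBP transcription factors. These switch on genes for taking up fatty acids, for coating and emptying the droplet, and for secreted adipokines. A difference in adipocyte RNA in bulk marrow can mean a different number of adipocytes or a different amount of RNA per adipocyte. Other cells of the marrow also add to the RNA measured, and these readings cannot be told apart here.

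Promoters in the RefSeq table for the mouse build GRCm38.p6 were matched by symbol for 7 of the 10 genes, with 11 start sites. Those of Cfd and Adipoq are shown because Cfd stood further above unirradiated marrow in the recipients of cells than Adipoq did. This difference between the adipokines was not tested. That of Retnla is shown because, of the genes followed here, it had the largest gap between the MSC arrays. Each runs 5′ to 3′ from 250 bases before the start site to 50 bases after it. Capitals mark matches on either strand to AGGTCA (a motif of nuclear receptors), TTGCNNAA (a C/EBP-type site), CCAAT or TATAAA, and no matches overlapped. The Cfd promoter lies at chr10:79890603-79890902, plus strand, the Adipoq promoter at chr16:23146286-23146585, plus strand, and the Retnla promoter at chr16:48842359-48842658, plus strand.
Cfd: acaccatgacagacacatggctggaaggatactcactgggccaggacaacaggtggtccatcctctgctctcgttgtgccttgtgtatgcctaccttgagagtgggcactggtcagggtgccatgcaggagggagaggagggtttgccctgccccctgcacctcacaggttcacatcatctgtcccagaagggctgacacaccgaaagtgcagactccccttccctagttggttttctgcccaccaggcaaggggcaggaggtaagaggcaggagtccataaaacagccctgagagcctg
Adipoq: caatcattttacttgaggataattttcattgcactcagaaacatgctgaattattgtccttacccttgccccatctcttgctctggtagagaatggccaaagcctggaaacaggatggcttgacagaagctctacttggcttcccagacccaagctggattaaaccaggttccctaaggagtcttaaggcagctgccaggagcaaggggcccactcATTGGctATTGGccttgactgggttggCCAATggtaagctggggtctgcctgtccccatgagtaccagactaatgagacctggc
Retnla: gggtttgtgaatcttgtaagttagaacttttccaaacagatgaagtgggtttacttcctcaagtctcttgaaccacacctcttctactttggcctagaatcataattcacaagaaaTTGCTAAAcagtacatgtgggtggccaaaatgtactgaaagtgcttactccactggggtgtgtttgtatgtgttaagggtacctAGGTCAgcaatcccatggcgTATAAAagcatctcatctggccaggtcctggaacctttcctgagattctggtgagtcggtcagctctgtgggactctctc
The Cfd window held none of the 4 motifs. The Adipoq window held 3 CCAAT matches, which begin 34, 27 and 7 bases before the start site. The Retnla window held 1 AGGTCA match 50 bases before the start site, 1 TTGCNNAA match 134 bases before it and 1 TATAAA match 30 bases before it. Of 32851 promoters of this length, 16.3% held AGGTCA, 10.8% held TTGCNNAA, 37.4% held CCAAT and 13.6% held TATAAA. These matches describe letters in a window and not sites of binding.

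Of each array's 19801 probes, 11072 to 12510 were above background, with a median ratio of spot to local background of 2.09 to 2.68. Values are log2 intensities after normexp background correction (offset 50) and quantile normalization, so a difference of 1 is a doubling of intensity. Probes entered the limma test if both arrays of either group in a comparison were above background, and the threshold was a Benjamini-Hochberg adjusted p of 0.05 over all probes tested. The replicates are pools of different mice, with n = 2 arrays per group. Cfd, Adipoq, Lpl, Fabp4 and Pparg were above background on all 6 arrays. Cidec was above it on 5 arrays and left out on MSC replicate 1, where the scanner software had marked the spot as contaminated. Car3 was above it on the 4 arrays of irradiated recipients only, was not above it on BM replicate 2, and was left out on BM replicate 1 for the same mark. Retn was above background on 2 arrays and Lipe on 0, so that 7 of the 10 genes were tested. No spot of these genes was saturated. Of the other adipocyte markers looked for, Lep had no probe either, so the adipocyte label rests on Adipoq, Cidec and Cfd. In 2 wider lists, 11 of 15 other lipid droplet and lipolysis genes were above background on at least 4 arrays. So were 15 of 23 genes of fatty acid uptake, triglyceride synthesis and storage with a probe. From these lists Plin4, Cav1, Cavin1, Gpd1, Mogat1, Pck1 and Me1 were above background on 0 arrays. Blood-cell markers were present, with 11 of the 12 neutrophil markers that had a probe above background on at least 4 arrays. Of 13 skeletal muscle markers with a probe 3 were, namely Tnni2 and Mylpf on all 6 arrays and Atp2a1 on 5. The muscle genes Acta1, Ckm, Myh4, Myl1 and Tnnt3 were above background on 0 arrays.

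**Figure D1:**
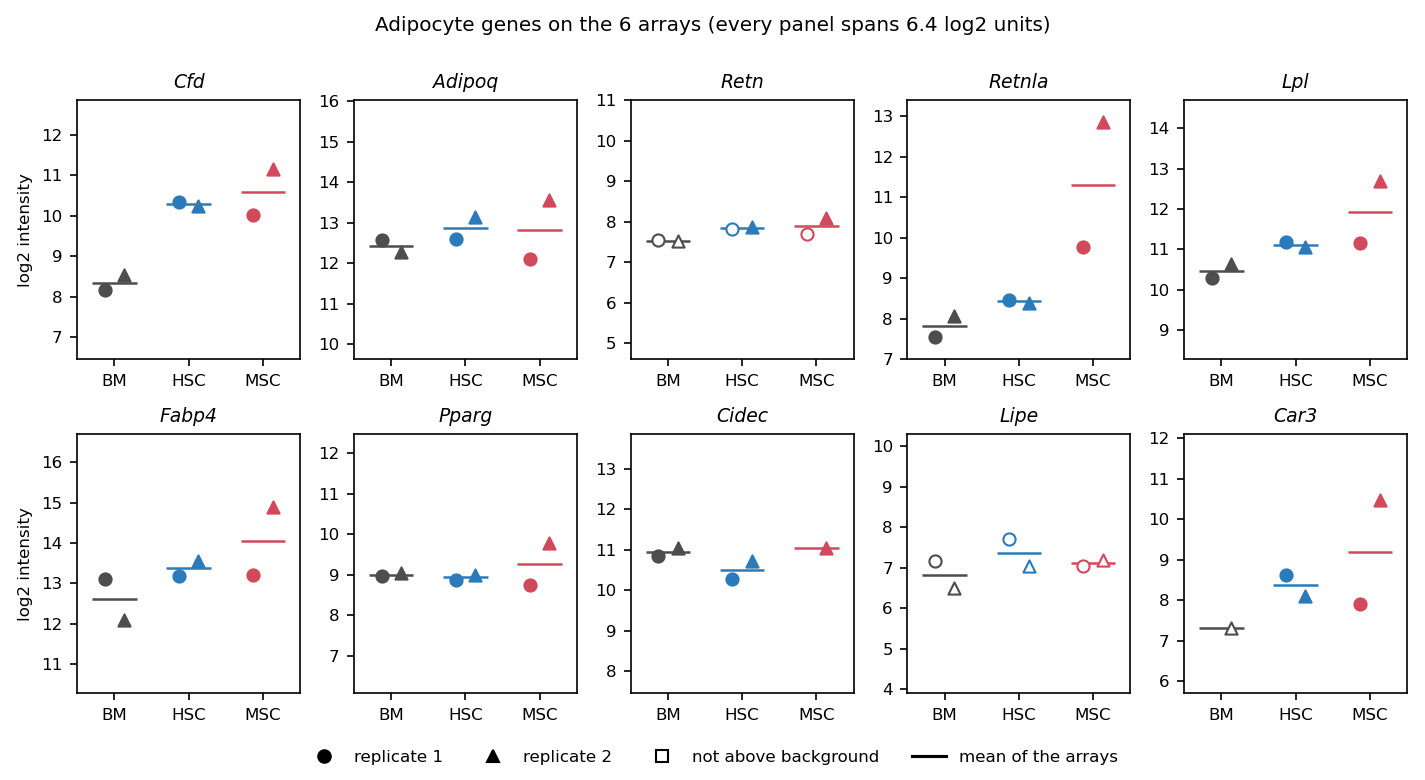
Each panel shows 1 gene, with the log2 intensity on the vertical axis and the groups BM, HSC and MSC on the horizontal axis; circles are replicate 1, triangles replicate 2, open symbols spots not above background, and lines the mean of the arrays. Cfd was lower on both BM arrays (8.17 and 8.53) than on the 4 arrays of irradiated recipients (10.03 to 11.15), and MSC replicate 2 was the highest array for Cfd, Adipoq, Lpl, Fabp4, Pparg, Car3 and Retnla.

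Among the secreted products, Cfd gave the clearest difference between groups. Cfd encodes adipsin (complement factor D), the protease that starts the alternative pathway of complement and a classic product of fat cells. It stood at 8.17 and 8.53 on the BM arrays, at 10.34 and 10.24 on the HSC arrays, and at 10.03 and 11.15 on the MSC arrays. All 4 arrays of irradiated recipients thus lay above both arrays of unirradiated marrow, while the HSC and MSC groups overlapped. Against BM, the log2 fold change was 1.94 in the HSC group (SE 0.36, 3.84-fold, adjusted p = 0.379 from limma) and 2.24 in the MSC group (SE 0.37, 4.71-fold, adjusted p = 0.0828 from limma), and neither passed the threshold. These comparisons share the BM arrays. The 4 irradiated arrays set together against BM, a comparison added after the values were seen, gave 2.09 (SE 0.32, 95% confidence interval 1.32 to 2.85, adjusted p = 0.135 from limma). In that comparison 0.075% of all probes passed, and 5.26% of the 12001 probes tested had all 4 irradiated arrays above both BM arrays. Cfd did pass in 2 of 18 alternatives for MSC against BM, with median scaling (2.15, adjusted p = 0.0311) and without MSC replicate 1 (2.80, adjusted p = 0.0350). Without MSC replicate 2 it was 1.68 (adjusted p = 0.168). Between MSC and HSC the log2 fold change was 0.30 (SE 0.37, 95% interval -0.59 to 1.18).

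Adipoq encodes adiponectin, the abundant circulating adipokine that raises insulin sensitivity. Its values were 12.56 and 12.28 in BM, 12.60 and 13.13 in HSC, and 12.09 and 13.56 in MSC, so the lowest and the highest array both belonged to the MSC group. The log2 fold changes were 0.44 for HSC against BM (95% interval -0.64 to 1.53), 0.41 for MSC against BM (-0.71 to 1.52) and -0.04 for MSC against HSC (-1.15 to 1.08). The adjusted p from limma ranged from 0.781 to 0.977 over these 3 comparisons. The BM and MSC groups overlapped.

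Retn encodes resistin, which in mice is a secreted product of white fat. It stood between 7.52 and 8.09 on the 6 arrays and was above background only on HSC replicate 2 and MSC replicate 2, so it was not tested. The gene number given in the scanner files would call another probe Retn, but the sequence record of that probe and the annotation of the array name it Retnla. Retnla encodes the resistin-like protein also known as FIZZ1 or RELMα, made by alternatively activated macrophages and other cells as well as in fat, and it is followed separately and not counted among the 10 genes. It stood at 7.55 and 8.07 in BM, 8.46 and 8.40 in HSC, and 9.77 and 12.85 in MSC. Both MSC arrays were above all other arrays, but they were 3.08 apart. The log2 fold change was 2.88 for MSC against HSC (SE 0.87, adjusted p = 0.188 from limma) and 3.49 for MSC against BM (SE 0.87, adjusted p = 0.221). Without MSC replicate 2 these values were 1.34 and 1.95, and without MSC replicate 1 they were 4.42 and 5.03 and passed (adjusted p = 0.0257 and 0.0177).

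Among the genes for taking up and carrying fatty acids, Lpl encodes lipoprotein lipase, which releases fatty acids from circulating triglyceride and is made by macrophages as well as adipocytes. Lpl was at 10.30 and 10.65 in BM, 11.19 and 11.05 in HSC, and 11.15 and 12.68 in MSC. As for Cfd, both BM arrays lay below the other 4, and MSC replicate 1 lay within the values of the HSC arrays. The log2 fold change was 1.44 for MSC against BM (SE 0.47, 2.71-fold, adjusted p = 0.307 from limma), 0.64 for HSC against BM (adjusted p = 0.897) and 0.80 for MSC against HSC (adjusted p = 0.424). For MSC against BM it was 0.68 without MSC replicate 2 and 2.20 without MSC replicate 1.

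Fabp4 encodes the fatty acid binding protein of adipocytes, also found in macrophages and in the endothelium of small vessels. It was at 13.12 and 12.09 in BM, 13.19 and 13.56 in HSC, and 13.21 and 14.88 in MSC. The BM arrays were 1.03 apart, and BM replicate 1 was only slightly below HSC replicate 1 and MSC replicate 1. The log2 fold change was 1.44 for MSC against BM (SE 0.57, adjusted p = 0.374 from limma), 0.77 for HSC against BM (adjusted p = 0.897) and 0.67 for MSC against HSC (adjusted p = 0.584). For MSC against BM it was 0.61 without MSC replicate 2, 2.28 without MSC replicate 1 and 0.93 without BM replicate 2.

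Pparg, the gene of the receptor that drives the fat cell program, was at 8.97 and 9.03 in BM, 8.87 and 9.0 in HSC, and 8.74 and 9.79 in MSC. The first 5 of these arrays lay within 8.74 to 9.03, and only MSC replicate 2 stood apart. The log2 fold change was -0.06 for HSC against BM (95% interval -0.86 to 0.73) and 0.27 for MSC against BM (-0.55 to 1.08).

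At the lipid droplet, Cidec encodes FSP27, which fuses droplets into the large droplet of white adipocytes. It was at 10.86 and 11.04 in BM, 10.27 and 10.72 in HSC, and 11.04 on the remaining MSC array. Both HSC arrays were below both BM arrays, the opposite order to Cfd, and the log2 fold change was -0.45 (SE 0.25, adjusted p = 0.897 from limma). With MSC replicate 2 alone standing for its group, MSC against BM was 0.09 (95% interval -0.66 to 0.85), and with the contaminated spot kept it was -0.36. Lipe encodes hormone-sensitive lipase, which splits stored fat. Its values ran from 6.49 to 7.70 and were not above background on any array, so nothing can be said of its level.

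Car3 encodes carbonic anhydrase 3, abundant in adipocytes and also in skeletal muscle. It was at 7.32 on the only BM array kept, at 8.63 and 8.11 in HSC, and at 7.91 and 10.48 in MSC. Since BM was not above background, the folds are lower bounds, at least 1.81-fold higher in the HSC group (adjusted p = 0.900 from limma) and at least 3.21-fold higher in the MSC group (adjusted p = 0.506). Without MSC replicate 2 the fitted log2 difference of MSC from BM was 0.59, and without MSC replicate 1 it was 3.17. MSC replicate 1 was below both HSC arrays and MSC replicate 2 was above them.

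**Figure D2:**
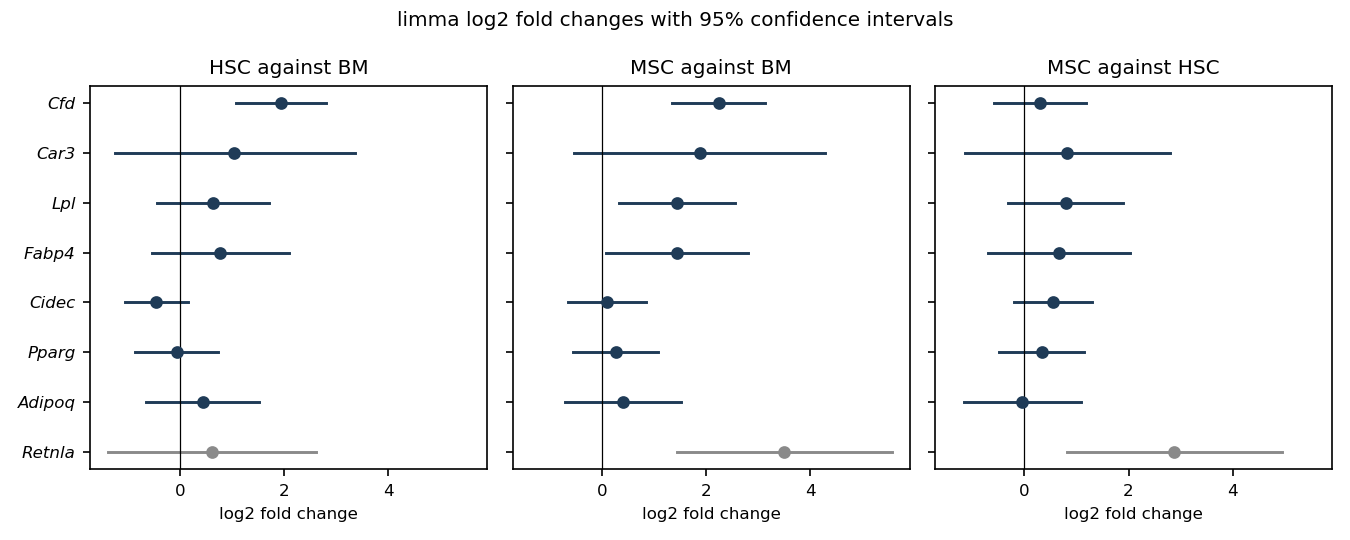
Points show the limma log2 fold change of 7 tested adipocyte genes and of Retnla (grey) in 3 comparisons, and lines the 95% confidence interval, on a common horizontal axis. The intervals of Cfd lay above 0 in both comparisons with BM (1.08 to 2.80 for HSC and 1.35 to 3.12 for MSC), and all 7 intervals included 0 for MSC against HSC.

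Set side by side, 0 of the 7 tested genes passed the threshold in any of the 3 comparisons. For MSC against BM 0.430% of the 11861 probes tested passed, for MSC against HSC 0.480% of 11660, and for HSC against BM 0.0359% of 11153. At an unadjusted p under 0.05, limma gave 3 of the 7 for MSC against BM (Cfd, Lpl and Fabp4, all higher), where 12.4% of all probes did so. It gave 1 for HSC against BM (Cfd), where 5.37% did, and 0 for MSC against HSC, where 16.9% did. The methods' t-test after Benjamini-Hochberg adjustment also gave 0 in each comparison. The median log2 fold change of the 7 genes was 1.44 for MSC against BM, 0.64 for HSC against BM and 0.55 for MSC against HSC, against a median over all tested probes of 0.01, 0.01 and 0.02. In the comparisons with BM, Car3 entered the tests only through the groups in which it was brighter. Without it the medians of the other 6 genes were 0.92, 0.54 and 0.44, so these medians are given as a description. Groups did not overlap for 3 genes higher in MSC than BM (Cfd, Lpl and Fabp4), where 19.3% of all probes behaved so. In HSC against BM they did not overlap for 4 genes that were higher (Cfd, Adipoq, Lpl and Fabp4), where 19.3% did, and for 1 that was lower (Cidec), where 15.3% did. In MSC against HSC 0 of the genes measured on all arrays of both groups were free of overlap, where 23.1% of all probes were higher and 24.6% lower without overlap.

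Within the MSC group the arrays lay further apart than the means of any groups for all of these genes but Cfd and Cidec, and Cidec had only 1 MSC array. MSC replicate 2 exceeded MSC replicate 1 in all 6 genes measured on both arrays, by 1.04 for Pparg, 1.12 for Cfd, 1.47 for Adipoq, 1.53 for Lpl, 1.67 for Fabp4 and 2.58 for Car3, with a median of 1.5. Over 10939 probes above background on both arrays this gap had a median of -0.07 and a central 95% from -0.82 to 1.16, and 4 of the 6 genes lay above that range. In the BM group the median gap of 6 genes was 0.11, with a range from -1.03 to 0.36, and in the HSC group that of 7 genes was 0.14, with a range from -0.52 to 0.52. Without MSC replicate 2, 5 of 6 genes were lower in MSC than HSC, with a median of -0.23 and 0 past the threshold, and the median for MSC against BM was 0.60. Without MSC replicate 1 the median for MSC against BM was 2.20, and 1 gene, Cfd, passed. Without BM replicate 2 this median was 0.61.

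**Figure D3:**
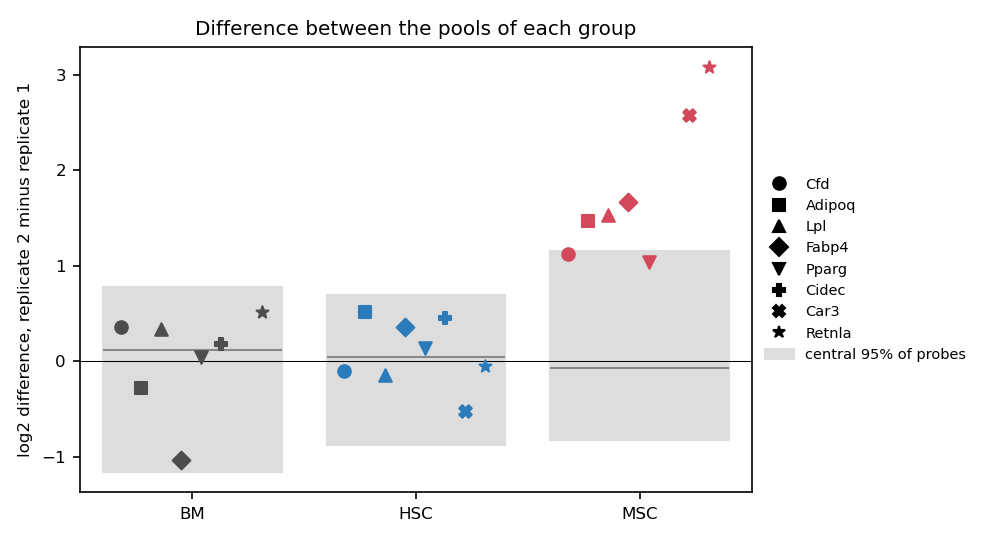
The vertical axis gives the log2 difference between replicate 2 and replicate 1 within each group, each symbol is 1 gene, the grey box is the central 95% of all probes above background on both arrays and the grey line their median. In the BM and HSC groups every gene shown lay within the box, while in the MSC group the gaps ran from 1.04 for Pparg to 3.08 for Retnla.

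Some markers of other cells also stood high on MSC replicate 2. Over the genes of a list above background on at least 4 arrays, the mean log2 deviation from the mean of all arrays was 1.18 for the adipocyte genes on MSC replicate 2, and between -0.62 and 0.07 on the other 5 arrays. For 8 markers of resident macrophages of 13 listed, it was 1.46 on that array and -0.66 to 0.10 on the others. For 8 of 11 stromal markers it was 0.69 against -0.45 to 0.09, and for 2 of 10 endothelial markers 0.42 against -0.32 to 0.02. Of these 2, Kdr was highest on that array (9.66), while Tie1 (8.52) was slightly below BM replicate 2 (8.54). The complement gene C1qa, a marker of tissue macrophages, was at 13.95 on MSC replicate 2 and 11.50 to 12.72 elsewhere. The macrophage gene Cd5l, which encodes a secreted scavenger protein, was at 11.60 and 8.71 to 9.72. Cxcl12, the chemokine by which stromal cells hold blood-forming cells in the marrow, was at 11.56 on this array and 7.66 to 10.67 elsewhere. Not every stromal marker was highest on this array, and Pdgfrb, a receptor of pericytes and stroma, was lowest there (8.03, against 8.29 to 8.75). Foxc1 was highest on MSC replicate 1 (12.44). Lepr, above background on 1 array, stood at 8.70 on MSC replicate 1 and 7.06 on MSC replicate 2. On MSC replicate 2 the marker lists of monocytes (-0.13), neutrophils (-0.16) and skeletal muscle (-0.09) stood near 0. The erythroid list was at 0.37 there, and at 0.50 on MSC replicate 1 and on BM replicate 1. Early B cell markers were lower on both MSC arrays (-1.42 and -1.04) than on all others (0.17 to 1.00), and 5 of their 9 tested genes fell in MSC against HSC, where 0.403% of all probes tested did. Without MSC replicate 2, 3 of the 9 fell. The defining macrophage gene Adgre1 (F4/80) was above background on 0 arrays. The part of these other cells in the adipocyte values was not tested.

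**Figure D4:**
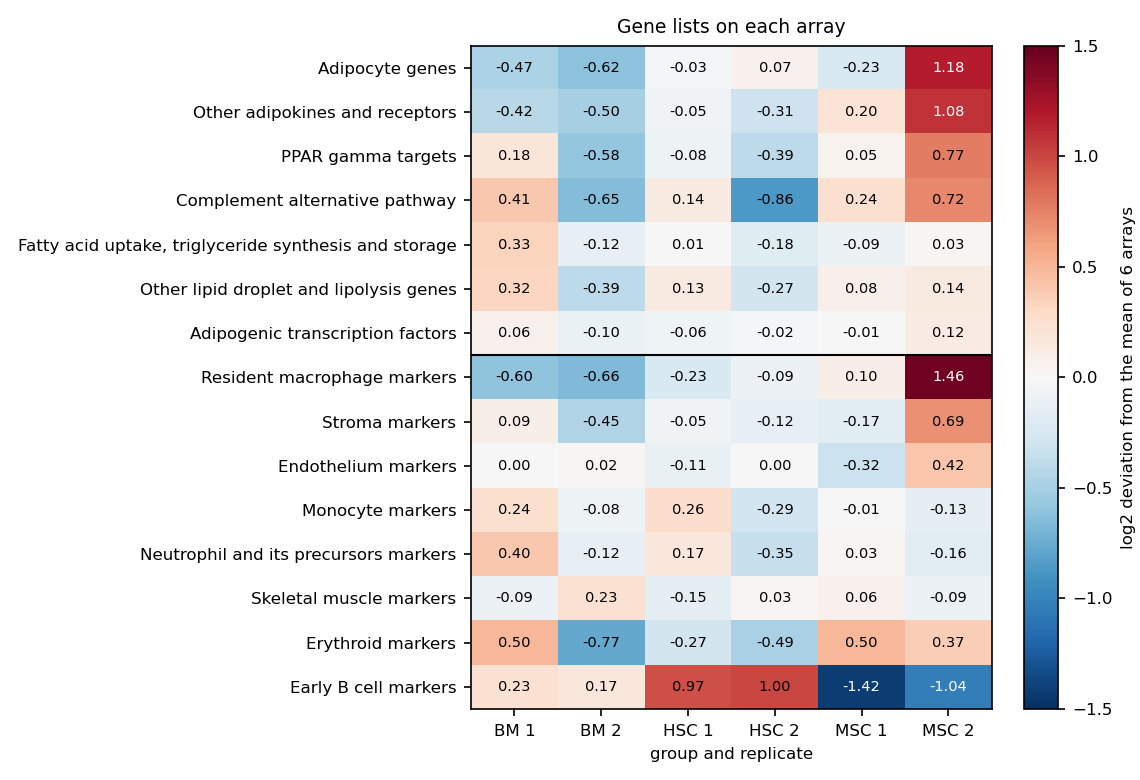
Each cell gives the mean log2 deviation of a gene list on 1 array from the mean of the 6 arrays, with lists in rows and arrays in columns, red for higher and blue for lower; the line separates gene groups of the fat cell from markers of other cells. On MSC replicate 2 the adipocyte genes (1.18), other adipokines and receptors (1.08) and resident macrophage markers (1.46) stood highest. The row of other adipokines and receptors rests on 5 genes, of which Retnla was at 12.85 on that array and 7.55 to 9.77 elsewhere. Adipor1 (12.85) and Adrb3 (9.83) were not at their highest there.

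Of the wider fat cell program, 2 genes passed the threshold, Fabp5 and Gpam. Of 15 adipogenic transcription factors and cofactors 9 were tested for MSC against HSC and 0 passed, with a median of 0.11. In this list Nr1h3, the liver X receptor α, differed by 0.68 (SE 0.34). Cebpa, a master regulator beside PPARγ, was at 9.14 and 6.98 in BM, 7.81 and 8.08 in HSC, and 8.80 and 8.69 in MSC, and since it was above background on only 1 HSC array and 1 BM array, it was tested only through the MSC group. Of 15 other lipid droplet and lipolysis genes 11 were tested and 0 passed. In this group G0s2, an inhibitor of the lipase ATGL, differed by -1.35 (SE 0.39, adjusted p = 0.174 from limma). Mgll, the monoglyceride lipase gene, was at 9.24 and 7.02 in BM, 7.88 and 7.22 in HSC, and 8.88 and 8.66 in MSC, and was likewise tested only through the MSC group, with 1 array above background in each of the others. Of 9 genes of brown and beige fat 2 were tested and 0 passed. Dio2, the deiodinase that activates thyroid hormone, was at 7.97 and 8.31 in BM, 8.07 and 8.44 in HSC, and 8.86 and 8.68 in MSC, and differed by 0.51 between MSC and HSC (SE 0.24, adjusted p = 0.332 from limma). Elovl3, an enzyme that lengthens fatty acids, was at 8.10 and 8.01 in MSC and 7.39 to 8.06 elsewhere, above background on 1 HSC array and 0 BM arrays. The thermogenic gene Ucp1 was above background on 0 arrays.

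In fatty acid handling and triglyceride synthesis, 15 of 25 genes were tested in MSC against HSC and against BM, and 1 gene passed in each. Fabp5, a fatty acid binding protein of skin and macrophages as well as fat, stood at 12.24 and 12.49 in BM, 12.41 and 12.50 in HSC, and 13.87 and 14.39 in MSC. Unlike Fabp4, it was higher on both MSC arrays than on all others. It rose in MSC against BM, with a log2 difference of 1.77 (SE 0.25, limma adjusted p = 0.0486), and against HSC it differed by 1.68 (SE 0.25, adjusted p = 0.0530). Among the limma alternatives, the difference from HSC did pass with cyclic loess (adjusted p = 0.0416), over probes above background on all 6 arrays (0.0444) and with the pool numbers of the MSC group crossed (0.0402). The call against BM was close to the threshold and held in 4 of 18 alternatives, over which the log2 fold change was 1.51 to 2.03. Gpam encodes the enzyme that begins triglyceride synthesis at the mitochondrial membrane. It stood at 9.57 and 10.26 in BM, 10.86 and 11.10 in HSC, and 8.76 and 8.61 in MSC, so that the groups did not overlap. It fell in MSC against HSC, where the log2 difference was -2.30 (SE 0.28, limma adjusted p = 0.0297). This call held in 10 of 18 alternatives, with values from -2.52 to -2.18. Leaving out either BM array gave the same fit as only the 4 arrays compared (SE 0.22), so that fit is counted more than once. Both genes kept their direction without MSC replicate 2 (1.51 for Fabp5 against BM and -2.22 for Gpam against HSC), though neither then passed (adjusted p = 0.181 and 0.159).

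Of 15 PPARγ target genes, 9 were tested for MSC against HSC, where 0 passed, and 9 for MSC against BM, where 1 passed, Fabp5. Cpt1a and Abcg1 entered MSC against HSC only through the MSC group, where both were higher (0.68 and 0.40). Cpt1a also entered MSC against BM only through the MSC group, and its value there (0.38) is the median of the list. The median of the tested targets was 0.68 for MSC against HSC and 0.38 for MSC against BM. Without MSC replicate 2 these medians were 0.36 and 0.27, and they are given as a description. Among other adipokines and their receptors 5 of 15 genes were tested and 0 passed. In this list Angptl4, a secreted inhibitor of lipoprotein lipase and a PPAR target, was at 8.90 and 8.67 in BM, 9.69 and 9.58 in HSC, and 9.53 and 11.01 in MSC. Angptl4 thus ran in the order seen for Lpl and Cfd, lowest in BM and highest on MSC replicate 2, and differed by 1.49 for MSC against BM (SE 0.45, adjusted p = 0.279 from limma).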

How the data were processed

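RNA of pooled marrow from 6 samples was measured on 1-colour CodeLink UniSet Mouse 20K I Bioarrays (the label protocol calls them human arrays, but the probes carry mouse sequence records). The authors deposited linear spot mean and local background median intensity values from the scanner, and a table of log2 values, quantile normalized after the sign of spots below background was dropped. The software settings for that table are not given in the sources used here.

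Spots marked contaminated, missing or as controls were left out. Background was corrected with normexp (offset 50), arrays were quantile normalized, and limma (version 3.58.1, R 4.3.3, two-sided moderated test) was fitted over all 6 arrays, with Benjamini-Hochberg adjustment over all probes tested in a comparison. An offset makes fold changes of dim probes smaller. Probes were named by sequence record (10712), array annotation (1943) or gene number (1977), and 5169 have no name. Of 10455 probes with both, 337 have a gene number that names another gene than the sequence record, which took precedence. Each named gene with several probes was taken at its brightest probe. Lower bounds set the mean of the brighter group against the higher of the dim spot and that array's lowest detected value.

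The genes and lists were chosen with earlier results of these data known. All 10 adipocyte genes are described, and of each related list the members that passed in any comparison, otherwise the 2 with the largest difference between MSC and HSC. Ucp1, C3 and the macrophage, stromal, endothelial and muscle markers were named after their values were seen. The same holds for list genes named only to show a limit or a lack of detection. Pool numbers were not taken to pair the samples, as the sources give pools of 1 number no shared origin. Gaps between pools correlated at 0.568 (BM and HSC), -0.278 (BM and MSC) and -0.199 (HSC and MSC) over 8848 probes. P-values measure the spread between pools. Each array is a slide of its own, so slide and sample cannot be told apart. Alternatives changed the background, offset, scaling, filter, samples and test. Leaving out an array of the group not compared gives the same fit as using only the arrays compared. Counts of alternatives and of recomputed values therefore hold some fits more than once. Figures used Python 3.11.15 and matplotlib 3.10.9, and tables pandas 2.3.3.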

Additional observations from a re-analysis of the deposited data

How the results depend on the processing

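Precision is limited by having 2 arrays per group, and Retn and Lipe were too close to background for a test. The count of adipocyte genes past the threshold stayed at 0 in each comparison except in these cases. It was 1 (Cfd) with median scaling for MSC against BM and for the irradiated groups against BM. It was also 1 (Cfd) with the methods' unadjusted t-test for HSC against BM and for the irradiated groups against BM, and ranged from 0 to 1 over the arrays left out in turn for MSC against BM and for the irradiated groups against BM. The cause was not tested. The median log2 fold change of the tested genes ranged from -0.23 to 0.86 over the arrays left out for MSC against HSC, from 0.60 to 2.20 for MSC against BM, and from 0.44 to 1.42 for the irradiated groups against BM, and in the other alternatives it moved by less than the spread between arrays. Cidec against BM in the MSC group was -0.10 with median scaling, -0.07 with the pool number as a replicate block and -0.36 with contaminated spots kept, an alternative chosen after seeing the data. Over the arrays left out in turn, MSC against HSC ranged from -0.78 to 0.70 for Adipoq, -0.26 to 0.86 for Cfd, -0.16 to 1.5 for Fabp4, -0.19 to 0.85 for Pparg, -0.46 to 2.11 for Car3 and -0.10 to 1.37 for Angptl4. MSC against BM ranged from -0.33 to 1.14 for Adipoq and from -0.26 to 0.79 for Pparg, and the irradiated groups against BM from -0.16 to 0.36 for Pparg. With the pool number as a replicate block, 15 probes in place of 56 passed for MSC against HSC, 22 in place of 51 for MSC against BM and 0 in place of 4 for HSC against BM, and 0 adipocyte genes passed in each. The block also ended the calls of Gpam (adjusted p = 0.0896 for MSC against HSC) and Fabp5 (0.0896 for MSC against BM), and, in MSC against HSC, left 3 of the 9 early B cell markers past the threshold in place of 5. It changed no call of the adipocyte genes, Retnla, Cfb or Angptl4. The methods' unadjusted t-test passed Fabp5 for MSC against HSC and Cfb for MSC against BM. With the pool numbers of the MSC group crossed, an arbitrary block that was not planned, 232 probes passed for MSC against HSC. For MSC against BM 104 did, and in either comparison 0 of these probes were adipocyte genes. Without a filter on dim probes, Retn and Lipe gave adjusted p from 0.754 to 0.976. Of 716 recomputed values for named genes, 662 kept their direction and side of the threshold, 22 lost a call, 19 gained one and 13 turned.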

Other observations

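The alternative pathway of complement, which adipsin starts, was followed through 8 genes beside Cfd, of which 5 were tested for MSC against HSC and 0 passed. Cfb encodes factor B, the substrate that adipsin cuts. It was at 7.69 and 7.67 in BM, 8.46 and 7.82 in HSC, and 9.49 and 10.50 in MSC, and both MSC arrays lay above all others. The log2 fold change was 2.31 for MSC against BM (SE 0.37, adjusted p = 0.0821 from limma) and 1.85 for MSC against HSC (SE 0.37, adjusted p = 0.105). Among the limma alternatives Cfb passed against BM with median scaling (adjusted p = 0.0282). It did not with the deposited values (0.116), without a dim-probe filter (0.15) or with the pool number as a replicate block (0.194). The log2 fold change against BM was 2.81 without MSC replicate 1 and 1.81 without MSC replicate 2. Crossing the pool numbers of the MSC group, an arbitrary and unplanned block, gave an adjusted p of 0.0345 against BM and 0.0410 against HSC. Cfb was above background on 1 array of BM and 1 of HSC, and so was tested only through the MSC group. C3ar1, a receptor for a cleavage product of C3, was at 8.11 and 9.36 in MSC and at 7.53 to 7.70 on the other 4 arrays, and was at least 2.05-fold higher in MSC than HSC, which was above background on 0 arrays (adjusted p = 0.254 from limma). C3ar1 entered that test only through the MSC group. C3 itself ranged from 8.05 to 11.61 with the BM arrays at both ends, and gave 0.64 for MSC against HSC (SE 1.12, adjusted p = 0.799).

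Of 14 other carbonic anhydrases 5 were tested and 0 passed. Car2, the abundant enzyme of red cells and osteoclasts, ran from 14.68 to 15.15 over the 6 arrays, and Car14, a membrane-bound member, from 10.07 to 10.72.

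Over 7242 probes of named genes above background on all 6 arrays, the profile most like that of Lpl was that of Cd5l (Pearson r = 0.997, n = 6 arrays). Nyap1 (0.989) and Trim60 (0.988) came next for Lpl. The profile most like that of Fabp4 was that of Gas6, the gene of a ligand of the Axl receptor (r = 0.984), before Steap2 (0.977) and Dcn (0.97). For Cfd it was Fxr1 (r = 0.988), for Pparg Slc6a8 (r = 0.997) and for Adipoq Rasd1 (r = 0.968). Among the adipocyte genes themselves r ran from 0.456 (Cfd and Pparg) to 0.867 (Cfd and Lpl). These values describe 6 arrays in which MSC replicate 2 is often the highest point, and no test was made of them.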
